A study of Mus musculus with 8 samples.

Results

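Integrins are cell-surface receptors made of one alpha and one beta chain, and 10 integrin subunit genes are described here in 3 populations of mouse mononuclear phagocytes. The members were taken by gene name, with no threshold on their measured levels: the alpha chains Itga4, Itga6, Itgal, Itgam, Itgav and Itgax and the beta chains Itgb1, Itgb2, Itgb3 and Itgb5. They were chosen with earlier results of these data known. All 10 were found among the 23413 genes measured, and all 10 passed the filter on low values, which 11415 genes passed. RNA sequencing covered 8 libraries, of which 2 came from microglia labelled wild type, 3 from repopulating microglia and 3 from bone-marrow macrophages. Microglia live in the brain as its own macrophages, and repopulating microglia are those found after depletion. The strain label of the wild-type samples is DTR, while the repopulating microglia and the bone-marrow macrophages carry DTRmg, so strain and group cannot be told apart in comparisons with wild type. One protocol text stands on all 8 samples: subcutaneous tamoxifen (2 mg, postnatal days 12 and 14), then diphtheria toxin into the peritoneum (500 ng, on 3 occasions) to deplete microglia. The labels do not name the promoter behind the toxin receptor, the age at isolation, the sorting markers, or whether bone-marrow macrophages came from marrow or from brain. CD11b, the product of Itgam, is a common sorting marker for such cells. The bone-marrow macrophage values stood under the column name mono and were assigned by exclusion. Separate animals are not stated for the replicates, so the p-values rest on a spread between samples that could be technical.

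Each alpha chain pairs with a limited set of beta chains, and the pair decides what the cell can bind. Itgb2 is the common beta chain of the leukocyte integrins, joining Itgal (CD11a), Itgam (CD11b) or Itgax (CD11c) to bind intercellular adhesion molecules and complement fragments. Itgb1 joins Itga4 to bind Vcam1 and fibronectin, and joins Itga6 to bind laminins. Itgav joins Itgb3 or Itgb5 to bind matrix proteins that carry the Arg-Gly-Asp motif, such as vitronectin and osteopontin, and takes part in apoptotic-cell uptake and in the activation of latent TGF-beta.

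Each value is a gene's count after the authors scaled the library by its own size factor, and is called a normalised count. Differences are on the scale of log2(normalised count + 1), which understates the change of low genes, and are called at a Benjamini-Hochberg adjusted p under 0.05 in limma, adjusted over all 11415 genes. Total reads per library ran from 5918944 to 12476427. One library, repopulating replicate 3, differed most from its group: the chi-square per gene against counting noise was 58.2 and 61.2 between it and replicates 1 and 2, against 11.05 between those 2, 24.2 between the wild-type libraries and 7.05 to 8.62 among bone-marrow macrophages. Results that rest on replicate 3 are given with and without it. Summed levels of 10 microglial markers were 480532 to 511548 normalised counts in wild-type microglia, 322061 to 380905 in repopulating microglia and 134752 to 146473 in bone-marrow macrophages. One of these markers, Sall1, was at 9.55 to 35.8 in bone-marrow macrophages and at 1864 to 6101 in the other 5 libraries. Summed levels of the 11 neutrophil markers measured were 27634 to 29671 in wild-type microglia, 1720 to 3207 in repopulating microglia and 860.1 to 1425 in bone-marrow macrophages, with none of the 11 at 0 in every library.

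Between bone-marrow macrophages and wild-type microglia, 4 of the 10 genes were higher in bone-marrow macrophages (Itga4, Itga6, Itgal and Itgax) and 3 were lower (Itgam, Itgb2 and Itgb3). That is 70% of members called, against 43.5% of all genes tested (21.3% higher and 22.2% lower). Groups did not overlap for 10 of 10 members, against 75.8% of all genes tested. The median log2 difference was 0.01 for the members and -0.01 for all genes tested. Between repopulating microglia and bone-marrow macrophages 6 members were called, with Itgam, Itgb2, Itgb3 and Itgb5 higher in repopulating microglia and Itga4 and Itgal lower. The share called there was 60% against 30.9% of all genes (16% higher and 14.9% lower), and 7 of 10 members did not overlap, against 46% of all genes. The medians were -0.02 for the members and 0.00 for all genes (0.00406). Between repopulating and wild-type microglia 3 members rose (Itga6, Itgax and Itgb2) and none fell, or 30% called against 8.61% of all genes (4.86% higher and 3.75% lower). Groups did not overlap there for 6 of 10 members, against 40.4% of all genes, and the medians were 0.38 and -0.02. The 3 comparisons share libraries in pairs, so their counts are not independent of each other. In bulk RNA, fewer cells of a type and less RNA per cell cannot be told apart.

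The counts in both comparisons with bone-marrow macrophages stayed between 6 and 8 called members in all 22 alternatives tried. The 3 calls between repopulating and wild-type microglia were less stable. None remained without wild-type replicate 1, without wild-type replicate 2, or with only the libraries of those 2 groups in the fit, and 6 members were called higher without repopulating replicate 3.

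**Figure D1:**
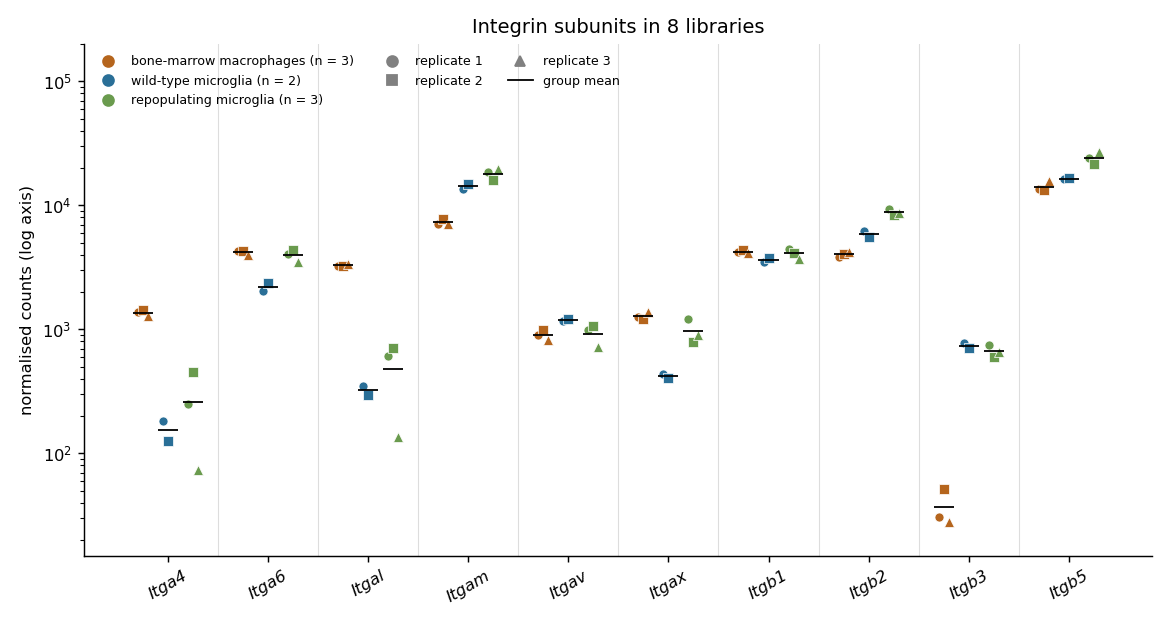
Normalised counts (log axis) of the 10 integrin subunit genes in each of 8 libraries. Points are libraries, with colour for the population and shape for the replicate number, and bars are group means. Itgb3 lies at 28.2 to 52.0 in bone-marrow macrophages and above 600 in every microglial library, and Itga4 and Itgal of repopulating replicate 3 lie below those of the other 7 libraries.

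**Figure D2:**
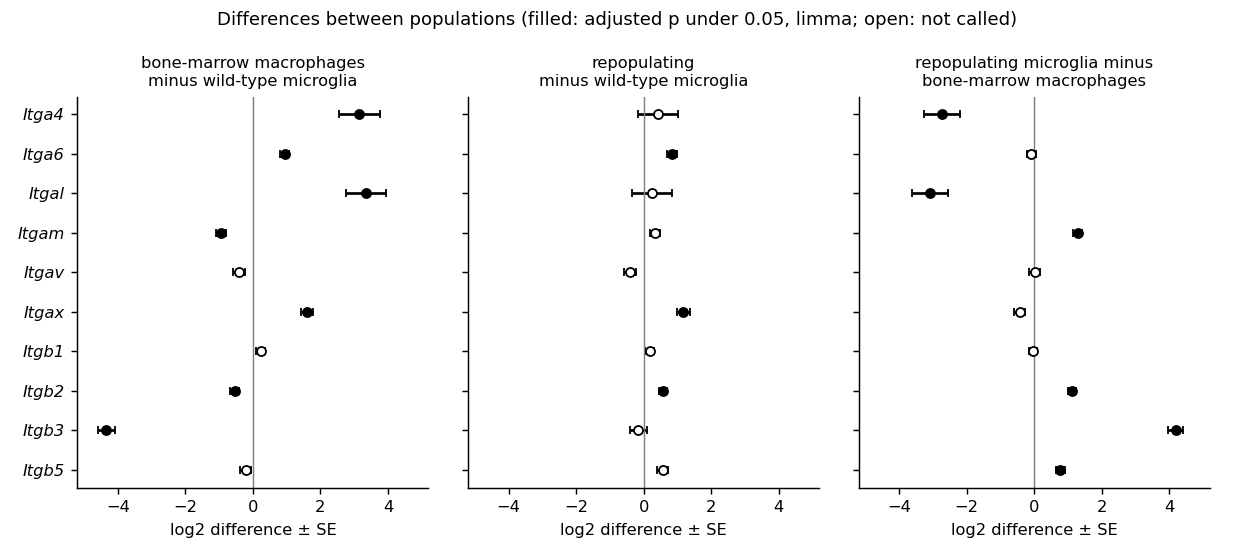
Log2 differences ± SE of the 10 genes in 3 comparisons, from one limma model over 8 libraries. Filled points passed an adjusted p of 0.05 and open points did not. Itgb3 has the largest difference of the 10 in the outer panels, at -4.34 and 4.18, and only Itga6, Itgax and Itgb2 are filled in the middle panel.

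The leukocyte integrins were led by Itgam, whose product pairs with Itgb2 as complement receptor 3 (GRCm38 chromosome 7, 128062640 to 128118491, plus strand, as for all 10 genes). Itgam was at 13443 and 14965 normalised counts in wild-type microglia, at 18449, 15880 and 19461 in the 3 repopulating libraries, and at 7080, 7754 and 7085 in bone-marrow macrophages (values of a group stand in replicate order throughout). Every microglial library therefore exceeded every bone-marrow macrophage library. Itgam was lower in bone-marrow macrophages than in wild-type microglia by a log2 difference of -0.96 ± 0.15 (SE, limma adjusted p = 0.00122). It was higher in repopulating microglia than in bone-marrow macrophages by 1.29 ± 0.13, or 2.45-fold (limma adjusted p = 0.000179). Between repopulating and wild-type microglia the groups did not overlap, but the difference of 0.33 ± 0.15 did not pass (limma adjusted p = 0.195). In the GENCODE annotation a gene model on the same strand, Gm49368, shares 68.7% of the Itgam exon bases. It was not analysed here.

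Itgb2, the beta chain that all leukocyte integrins share (chromosome 10, 77530252 to 77565708), followed the same order of groups. It was at 6217 and 5560 normalised counts in wild-type microglia, at 9267, 8402 and 8708 in repopulating microglia, and at 3856, 4073 and 4186 in bone-marrow macrophages. No 2 groups overlapped. Itgb2 in bone-marrow macrophages was lower than in wild-type microglia (log2 -0.54 ± 0.13, limma adjusted p = 0.00889) and lower than in repopulating microglia (repopulating minus bone-marrow 1.12 ± 0.11, 2.18-fold, limma adjusted p = 0.000163). Leaving out wild-type replicate 1 ended the first of these (adjusted p = 0.0853). Its rise in repopulating over wild-type microglia was 0.58 ± 0.13, or 1.49-fold (limma adjusted p = 0.0277). That call ended in 10 of 22 alternatives, with adjusted p from 0.0505 to 0.276, among them the fit without each single library other than repopulating replicates 2 and 3.

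Itgal, the alpha chain of the receptor for intercellular adhesion molecules (chromosome 7, 127296260 to 127335138), was highest in bone-marrow macrophages. Wild-type microglia had 353 and 296 normalised counts against 3231, 3271 and 3388 in bone-marrow macrophages, where it was 10.2-fold higher (log2 3.35 ± 0.59, limma adjusted p = 0.00225). In repopulating microglia it was at 605, 705 and 135 in replicates 1 to 3. Replicates 1 and 2 lay above both wild-type libraries, and replicate 3 lay below both, on 117 reads. The group stood below bone-marrow macrophages by -3.09 ± 0.52 (limma adjusted p = 0.00248). Against wild-type microglia its difference was 0.26 ± 0.59 (limma adjusted p = 0.81). Without repopulating replicate 3 it was 1.01 with an adjusted p of 9.85e-05, and without replicate 1 or 2 it changed sign, to -0.07 or -0.18.

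Itgax, the CD11c chain found on dendritic cells and on activated microglia (chromosome 7, 128129547 to 128150657), was the leukocyte alpha chain that rose in repopulating microglia. It was at 437 and 403 normalised counts in wild-type microglia, at 1211, 790 and 903 in the 3 repopulating libraries, and at 1251, 1216 and 1378 in bone-marrow macrophages. All 6 libraries labelled DTRmg lay above both wild-type libraries. The rise over wild type was 1.18 ± 0.18 in repopulating microglia (2.27-fold, limma adjusted p = 0.00916) and 1.61 ± 0.18 in bone-marrow macrophages (3.05-fold, limma adjusted p = 0.000241). The first call was lost when wild-type replicate 1 or 2 was left out (adjusted p = 0.0884 and 0.0808) and held without repopulating replicate 3 (0.000259). Repopulating microglia and bone-marrow macrophages did not overlap in Itgax, with a difference of -0.43 ± 0.16 that did not pass (limma adjusted p = 0.0794). That difference passed in 4 of 22 alternatives. These were libraries scaled to equal totals (adjusted p = 0.00874), TMM scaling, quantile normalisation and the fit without repopulating replicate 1. The 8 dendritic-cell markers summed to 6808 and 6963 normalised counts in wild-type microglia, 6534 to 8645 in repopulating microglia and 1707 to 1870 in bone-marrow macrophages, and most of this was Siglech, which microglia also express. Zbtb46, Flt3, Xcr1 and Clec9a were at 36.6 or less in every library.

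Neutrophils carry Itgam, Itgb2 and Itgal, and their markers were highest in the wild-type libraries, at the sums given above. The 8 monocyte markers were also highest there, at 5860 and 8326 normalised counts, against 772 to 2680 in repopulating microglia and 2424 to 3073 in bone-marrow macrophages. The part of these cells in the differences of leukocyte integrins from wild-type microglia was not tested.

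Itgam and Itgax are neighbours with 11055 bases between them, on the same strand, and Itgal lies 727501 bases before Itgam. Between bone-marrow macrophages and wild-type microglia these neighbours were called in opposite directions. Their upstream sequences are shown as a description only, and cover the 250 bases before the RefSeq start of each gene (build GRCm38.p6, plus strand, chr7:128062390-128062639 for Itgam and chr7:128129300-128129549 for Itgax). Capitals mark exact matches to GAGGAA or its reverse complement TTCCTC, the core of the site bound by PU.1, a transcription factor of myeloid cells.
Itgam: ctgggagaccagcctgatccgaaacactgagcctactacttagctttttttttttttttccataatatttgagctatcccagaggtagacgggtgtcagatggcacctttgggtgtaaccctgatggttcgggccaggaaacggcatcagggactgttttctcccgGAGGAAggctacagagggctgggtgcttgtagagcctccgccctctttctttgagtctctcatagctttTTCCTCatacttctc
Itgax: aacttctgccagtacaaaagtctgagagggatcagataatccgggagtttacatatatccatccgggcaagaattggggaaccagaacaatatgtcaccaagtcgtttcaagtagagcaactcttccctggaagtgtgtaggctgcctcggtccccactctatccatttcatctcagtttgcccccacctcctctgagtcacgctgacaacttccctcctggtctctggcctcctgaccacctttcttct
The Itgam window held 2 matches, which began 84 bases (plus orientation) and 15 bases (minus orientation) before the start, and the Itgax window held none. Of the 6 members with an entry, 3 held a match, with Itgav matching at 218 and 7 bases and Itgb1 at 9 bases before the start, and Itga4, Itgax and Itgb5 with none. Among all 32851 promoters searched in the same window, 23.3% held a match on either strand. Itga6, Itgal, Itgb2 and Itgb3 had no entry. Binding of PU.1 was not measured, and an exact match does not stand for it. A part of this motif in the level of any member was not tested.

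Among the partners of Itgb1, Itga4 separated bone-marrow macrophages from microglia. Itga4 encodes the alpha chain of the Vcam1 receptor, which has been used to tell blood-derived macrophages from microglia in the brain (chromosome 2, 79255426 to 79333123). It was at 184 and 125 normalised counts in wild-type microglia, at 252, 453 and 73.7 in the 3 repopulating libraries, and at 1369, 1432 and 1271 in bone-marrow macrophages. Bone-marrow macrophages exceeded each microglial library, and repopulating microglia spread on both sides of wild type, with 64 reads in replicate 3. Itga4 was 8.89-fold higher in bone-marrow macrophages than in wild-type microglia (log2 3.15 ± 0.60, limma adjusted p = 0.00353), and repopulating microglia lay below bone-marrow macrophages by -2.73 ± 0.54 (limma adjusted p = 0.00538). Against wild type the repopulating group differed by 0.42 ± 0.60 (limma adjusted p = 0.685). That difference was 1.15 without repopulating replicate 3 (adjusted p = 0.00374) and -0.15 without replicate 2 (0.856). An antisense gene, Cerkl, shares 8.04% of the Itga4 exon bases, and strand was not marked.

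The wide spread of Itga4 and Itgal among repopulating replicates was not shared by the other members. Their coefficients of variation there were 73.1% and 63.2%, against 4.99% to 22.5% for the other 8 genes and 5.98% and 2.47% for the same 2 genes in bone-marrow macrophages. Summed levels of 7 markers of border macrophages, the macrophages of the brain's membranes and vessels, had the same order over the repopulating replicates, at 951, 1674 and 391.6 in replicates 1 to 3. These markers summed to 481 and 792 in wild-type microglia and to 6648 to 8282 in bone-marrow macrophages, and none of the 7 was at 0 in any library. One of them, Ms4a7, was at 320, 645 and 28.8 in repopulating replicates 1 to 3. The order was not particular to border macrophages. Monocyte markers summed to 2071, 2680 and 772 in repopulating replicates 1 to 3, and 10 markers of T and NK cells to 41.6, 56.1 and 39.2. The other marker lists did not have this order. Whether cells of any of these kinds or of the bone-marrow type added to Itga4 and Itgal in replicates 1 and 2 was not tested.

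Itga6, whose product binds laminin (chromosome 2, 71745616 to 71858416), rose in both groups labelled DTRmg. It was at 2037 and 2350 normalised counts in wild-type microglia, at 4023, 4383 and 3467 in repopulating microglia and at 4319, 4300 and 3955 in bone-marrow macrophages. Neither of the higher groups overlapped wild type, and they overlapped each other. The difference from wild type was 0.85 ± 0.14 in repopulating microglia (1.80-fold, limma adjusted p = 0.0124) and 0.94 ± 0.14 in bone-marrow macrophages (1.91-fold, limma adjusted p = 0.00116), and -0.09 ± 0.13 separated them (limma adjusted p = 0.644). With wild-type replicate 1 or 2 left out the first call ended (adjusted p = 0.149 and 0.0661). Leaving out repopulating replicate 3 gave 0.94 (adjusted p = 9.45e-05). The difference between repopulating microglia and bone-marrow macrophages passed in 1 of 22 alternatives, quantile normalisation (limma adjusted p = 0.0467).

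Itgb1, the most widely shared beta chain (chromosome 8, 128685654 to 128733200), varied least between groups. It was at 3475 and 3745 normalised counts in wild-type microglia, at 4488, 4165 and 3671 in repopulating microglia and at 4178, 4399 and 4096 in bone-marrow macrophages. No comparison passed: bone-marrow macrophages minus wild type was 0.23 ± 0.13 (limma adjusted p = 0.192), repopulating minus wild type 0.18 ± 0.13 (0.41), and repopulating minus bone-marrow macrophages -0.04 ± 0.12 (0.81). The first of these passed with libraries scaled to equal totals (0.37, adjusted p = 0.0289) or quantile normalised (0.32, adjusted p = 0.0438).

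Of the receptors for Arg-Gly-Asp ligands, Itgb3 had the largest differences among the 10 genes. Itgb3 encodes the beta chain shared by the vitronectin receptor and the platelet fibrinogen receptor (chromosome 11, 104608000 to 104670476). It was at 777 and 703 normalised counts in wild-type microglia, at 742, 601 and 657 in repopulating microglia, and at 30.7, 52.0 and 28.2 in bone-marrow macrophages, on 54, 49 and 32 reads. Microglia of either kind overlapped each other and lay far above bone-marrow macrophages. The bone-marrow level was 20.2-fold lower than wild type (log2 -4.34 ± 0.25, limma adjusted p = 1.47e-05) and 18.2-fold lower than repopulating microglia (repopulating minus bone-marrow 4.18 ± 0.23, limma adjusted p = 1.24e-05), and both calls held in all 22 alternatives. Repopulating minus wild type was -0.15 ± 0.25 (limma adjusted p = 0.728). Platelets also carry Itgb3. Their alpha chain Itga2b was at 1.76 normalised counts or less in every library, and Gp1bb and Gp6 were at 0 in all 8. The platelet markers summed to 277 and 286 in wild-type microglia, 75.3 to 234 in repopulating microglia and 22.0 to 26.5 in bone-marrow macrophages. Most of that in microglia was Gp9, at 267 and 279 in wild type. A part of platelets in the Itgb3 differences was not tested.

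Itgb5, the other beta partner of Itgav described here and often listed among genes enriched in microglia (chromosome 16, 33829665 to 33949338), was highest in repopulating microglia. It was at 16174 and 16628 normalised counts in wild-type microglia, at 24235, 21712 and 26934 in repopulating microglia and at 13426, 13338 and 15781 in bone-marrow macrophages. No groups overlapped. Repopulating microglia exceeded bone-marrow macrophages by 0.78 ± 0.14 (1.71-fold, limma adjusted p = 0.00378). The difference from wild type, 0.56 ± 0.16, did not pass (limma adjusted p = 0.0656). It passed in 3 of 22 alternatives: without repopulating replicate 3 (0.48, adjusted p = 0.0165), in DESeq2 (adjusted p = 0.00398) and with library weights. Bone-marrow macrophages minus wild type was -0.21 ± 0.16 (limma adjusted p = 0.302), with the sign turned to 0.06 under quantile normalisation.

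Itgav itself, the alpha chain of both receptors (chromosome 2, 83724397 to 83806916), passed in no comparison. It was at 1173 and 1221 normalised counts in wild-type microglia, at 983, 1060 and 720 in repopulating microglia and at 901, 990 and 825 in bone-marrow macrophages. Both wild-type libraries lay above the other 6. The differences from wild type were -0.40 ± 0.18 in repopulating microglia (limma adjusted p = 0.197) and -0.41 ± 0.18 in bone-marrow macrophages (0.0947). The second passed in 3 of 22 alternatives. These were the fit without repopulating replicate 3, which took part through the shared spread (adjusted p = 0.00599), only the 2 groups compared (0.00625), and library weights. Repopulating minus bone-marrow macrophages was 0.01 ± 0.16 (limma adjusted p = 0.975), and its sign turned in 7 of 22 alternatives.

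Levels of different genes were compared as normalised counts per kilobase, taking the union of annotated exons as the length. Itgb5 was the highest of the 10 in each population, at 4616 ± 90.4 per kilobase in wild-type microglia (SD, n = 2), 6837 ± 735 in repopulating microglia (SD, n = 3) and 3991 ± 390 in bone-marrow macrophages (SD, n = 3). Itgam, Itgb2 and Itgb1 followed in that order in all 3 populations, and neighbours in that order did not overlap. Below them the orders differed. Wild-type microglia had Itga6, Itgb3, Itgav, Itgax, Itgal and Itga4, with no neighbours overlapping, from 243 ± 24.5 per kilobase down to 11.05 ± 2.97. Repopulating microglia had Itga6, Itgax, Itgb3, Itgav, Itgal and Itga4, from 439 ± 51.2 to 18.6 ± 13.6, and Itgav, Itgal and Itga4 overlapped in turn. Bone-marrow macrophages had Itgal, Itga6, Itgax, Itga4, Itgav and Itgb3, from 502 ± 12.4 to 6.26 ± 2.21, with Itga4 and Itgav overlapping. With the length of the transcript that has the longest coding sequence, a choice made after seeing the data, Itga6 passed Itgal in bone-marrow macrophages and Itgav passed Itgb3 in both microglial groups, and the other places were the same.

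Itgam made up 81.7% ± 0.429 of all alpha-chain counts per kilobase in wild-type microglia (SD, n = 2), 78.5% ± 2.86 in repopulating microglia (SD, n = 3) and 47.0% ± 1.46 in bone-marrow macrophages (SD, n = 3), over the 18 alpha genes measured. Itgal and Itga6 took up much of the gap, at 16.2% ± 0.578 and 15.0% ± 0.692 in bone-marrow macrophages against 1.44% ± 0.278 and 7.02% ± 0.214 in wild-type microglia. The beta chains kept more even shares. Itgb5 held 60.4% ± 1.68 of beta-chain counts per kilobase in wild-type microglia, 62.9% ± 2.82 in repopulating microglia and 62.4% ± 2.23 in bone-marrow macrophages, over 8 beta genes. Itgb3 held 1.64% ± 0.103, 1.04% ± 0.0837 and 0.0990% ± 0.0379 in the same order.

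**Figure D3:**
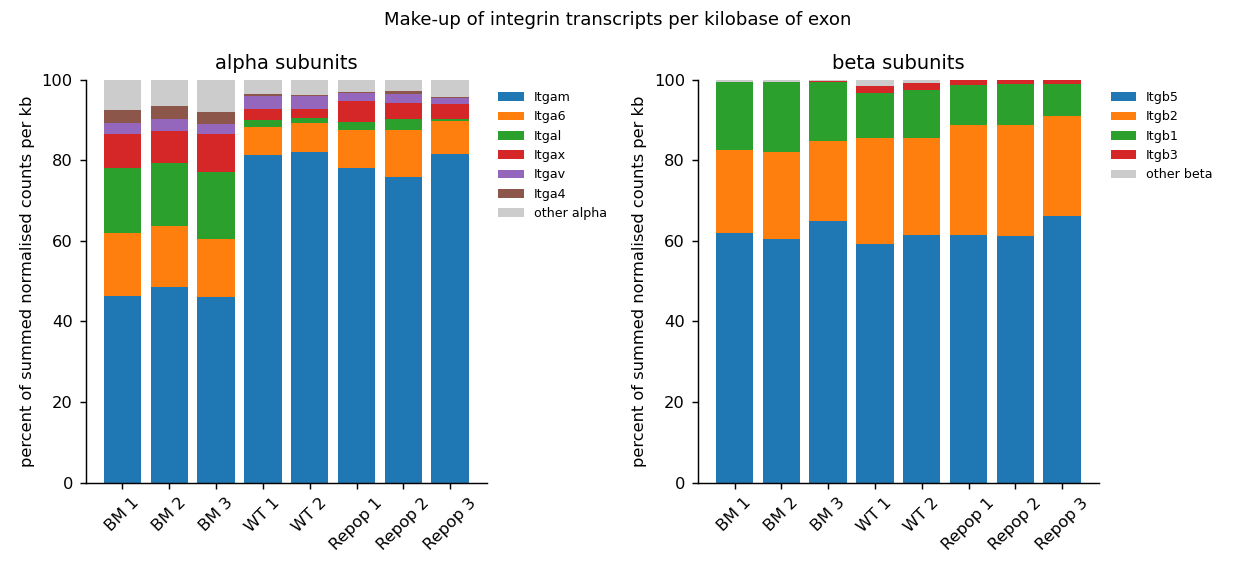
Percent of summed normalised counts per kilobase of exon that each alpha chain (left) and beta chain (right) takes in each library. BM stands for bone-marrow macrophages, and WT and Repop for the wild-type and repopulating microglia, and grey is all integrin genes outside the 10. Itgam takes 46.0% to 48.6% of alpha counts in bone-marrow macrophages and 76.0% to 82.1% in the 5 microglial libraries.

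Ratios of partner chains, per kilobase of exon union, compared transcript levels within each receptor group, not receptors on the cell. The leukocyte alpha chains Itgal, Itgam, Itgax and Itgad together stood at 1.54 ± 0.227 times Itgb2 in wild-type microglia, 1.33 ± 0.0924 in repopulating microglia and 1.68 ± 0.0587 in bone-marrow macrophages, with wild type overlapping both other groups. Within them, Itgam exceeded Itgal 2.73 to 3.10 times in bone-marrow macrophages, 49.8 and 66.1 times in wild-type microglia, and 39.8, 29.4 and 189 times in repopulating replicates 1 to 3. Itgb5 exceeded Itgb3 by 34.6 and 39.3 times in wild-type microglia, 54.2 to 68.1 times in repopulating microglia and 426 to 929 times in bone-marrow macrophages. Itga4 and Itga6 together were 0.287 ± 0.00921 times Itgb1 in wild-type microglia, 0.454 ± 0.0467 in repopulating microglia and 0.542 ± 0.0186 in bone-marrow macrophages, and no groups overlapped. The alpha chains Itga5 and Itga9 were left out of that ratio. In wild-type microglia they held 1.15% and 2.31% of alpha-chain counts per kilobase, against 0.323% for Itga4. These ratios carry no test. They and the shares above were taken with exon-union lengths only, and their size depends on that choice. Itga6 has 9025 bases of exon union but 4156 in the transcript with the longest coding sequence.

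Across the 8 libraries, which differ in population and depth for all genes alike, the members fell into sets that varied together. Pearson's r of log2 levels was 0.991 between Itga4 and Itgal, 0.949 between Itgam and Itgb2, 0.942 between Itgb2 and Itgb5, and 0.957 between Itgam and Itgb3. It was -0.911 between Itgal and Itgam and -0.007 between Itgav and Itgb2. Of the 7357 other genes with a mean of at least 100 normalised counts, those most like each member by r over 8 libraries were Sh2d1b1 and Fxyd5 for Itga4 (0.997 and 0.996), Runx3 and Gdf3 for Itgal (0.998 and 0.995), and Clk4 and Tlr9 for Itgam (0.999 and 0.991). They were C1qb and Unc93b1 for Itgb2 (0.997 and 0.991), Pmp22 and Slc12a2 for Itgb3 (0.999 and 0.997), Spint1 and Ndst2 for Itgb5 (0.981 and 0.979), and Ppip5k2 and Taf1d for Itga6 (0.991 and 0.988). For Itgax they were Zc3hav1 and Anxa6 (0.977 and 0.975), for Itgav Rab14 and Herc4 (0.984 and 0.979), and for Itgb1 Atp7a and Prkar2a (0.964 and 0.956). The choice among so many candidates favours high values with 8 points, and they are given as a description. Runx3, a transcription factor of lymphocytes and myeloid cells, was at 23.5 and 23.4 normalised counts in wild-type microglia, at 57.6, 72.3 and 6.91 in the 3 repopulating libraries and at 508 to 742 in bone-marrow macrophages.

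Of the 16 other integrin genes, 6 passed the filter (Itga5, Itga8, Itga9, Itgae, Itgb7 and Itgb8), and the other 10 were at 8.06 normalised counts or less in every library. In bone-marrow macrophages against wild-type microglia 3 of the 6 were higher and 2 lower (83.3% called, against 43.5% of all genes tested), in repopulating against wild-type microglia 1 was lower (16.7% against 8.61%), and in repopulating microglia against bone-marrow macrophages 3 were lower (50% against 30.9%). These shares include Itga8 and Itgb8, which passed the filter only through bone-marrow macrophage libraries. They also include Itgae, which reached 10 normalised counts only in both wild-type libraries (21.4 and 33.6) and repopulating replicate 3 (31.1). Its lower call in bone-marrow macrophages against wild type changed in 10 of 21 alternatives. Itgb7, a beta chain that joins Itga4 or Itgae in homing to the gut, was lower in repopulating microglia than in both other groups. It was at 337 and 184 normalised counts in wild-type microglia, at 23.6, 22.1 and 13.8 in repopulating microglia and at 75.0, 87.0 and 74.1 in bone-marrow macrophages, and no groups overlapped. The difference from wild type was -3.62 ± 0.32 in repopulating microglia (limma adjusted p = 0.000971) and -1.65 ± 0.32 in bone-marrow macrophages (0.00372), and both calls held in all 22 alternatives. The neutrophil sums given above were also highest in the wild-type libraries, and 10 markers of T and NK cells summed to 228 and 66.1 there, 39.2 to 56.1 in repopulating microglia and 103 to 136 in bone-marrow macrophages. Their part in Itgb7 was not tested. Itga5, the fibronectin receptor chain, was 2.19-fold higher in bone-marrow macrophages (433 ± 47.9, SD, n = 3) than in wild-type microglia (196 ± 8.59, SD, n = 2; limma adjusted p = 0.00102). Itga8 was at 48.3 to 54.1 in bone-marrow macrophages, 2.14 and 6.10 in wild-type microglia and 0 to 8.50 in repopulating microglia. Itgb8, a partner of Itgav in TGF-beta activation, was at 8.82 to 17.6 in bone-marrow macrophages, 1.07 and 0 in wild-type microglia (1 read in all) and 2.30 to 5.90 in repopulating microglia. As both were admitted by the group where they were high, their calls are not given as tests. Itgb8 was no longer tested without bone-marrow macrophage replicate 1 or 2, which left 5 of these genes.

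Of 40 genes of integrin activation and the adhesion machinery, 38 were tested. In bone-marrow macrophages against wild-type microglia 8 were higher and 12 lower, or 52.6% called against 43.5% of all genes tested, with a median log2 difference of -0.01 for the list and for all genes. Flna, an actin cross-linker that binds integrin beta tails, was 3.49-fold higher (limma adjusted p = 3.13e-05), as were Parvb of the integrin-linked kinase complex (3.55-fold, 0.000114) and the exchange factor Cyth1 (2.51-fold, 0.000286), while Fgr, a Src-family kinase of leukocyte integrin signalling, was 4.01-fold lower (5.09e-05). The 8 higher became 4 without wild-type replicate 1. The 12 lower became 5 without either wild-type library, and 7 and 6 without bone-marrow macrophage replicates 1 and 3. With libraries scaled to equal totals the split was 9 higher and 8 lower. In repopulating against wild-type microglia Parvb was higher (0.93 ± 0.18) and Fgr (-0.87 ± 0.17), Rasgrp4 (-2.07 ± 0.38) and Rasgrp2 (-2.85 ± 0.61), the last 2 being exchange factors for small GTPases, were lower, or 10.5% called against 8.61% of all genes (limma adjusted p = 0.019, 0.0178, 0.0159 and 0.0265). None of these 4 calls remained without either wild-type library, and 4 higher and 7 lower were called without repopulating replicate 3. In repopulating microglia against bone-marrow macrophages 7 were higher and 5 lower, or 31.6% called against 30.9% of all genes, with Flna (-1.59 ± 0.12), Cyth1 (-1.32 ± 0.14) and the adhesion-site protein Vcl (-1.28 ± 0.20) lower and Fgr (1.13 ± 0.15) higher. Their limma adjusted p-values were 4.22e-05, 0.000201, 0.00178 and 0.000656. The counts of both comparisons with bone-marrow macrophages include Fermt2 and Parva. Fermt2 reached 10 normalised counts only in wild-type replicate 2 (11.2) and repopulating replicate 3 (21.9). Parva reached 10 only in wild-type replicate 2 and repopulating replicate 2. Both were therefore admitted by the side where they were high. The call of Fermt2 changed in 10 of 18 alternatives against wild type and in 4 of 18 against repopulating microglia. That of Parva changed in 3 of 17 and in 10 of 17. The 7 became 2 without bone-marrow macrophage replicate 1 or 2, 3 without its replicate 3 or without repopulating replicate 1, 4 without wild-type replicate 2 and 11 without repopulating replicate 3, where the 5 also became 11. The split turned to 3 higher and 9 lower with libraries scaled to equal totals, and to 4 and 6 under quantile normalisation.

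Of 37 integrin ligands and matrix genes, 19 were tested. Jam2 and Jam3 are junctional adhesion molecules that bind leukocyte and Itga4 integrins, and both were highest in wild-type microglia. Jam2 was at 994 and 916 normalised counts in wild-type microglia, at 399, 362 and 578 in repopulating microglia and at 8.52, 6.36 and 7.94 in bone-marrow macrophages, and each pair of groups differed (limma adjusted p = 0.0236 for repopulating against wild type, 1.17e-06 for bone-marrow macrophages against wild type and 1.19e-06 for the third). Jam3 was at 150 and 199 in wild-type microglia, 10.4, 7.40 and 51.8 in repopulating microglia and 2.12 to 3.41 in bone-marrow macrophages (limma adjusted p = 0.0241 for repopulating against wild type). Repopulating replicates 1 and 2 lay nearer to bone-marrow macrophages than to wild type in Jam3. Neither Jam2 nor Jam3 reached 10 normalised counts in any bone-marrow macrophage library, so both passed the filter only through microglial libraries. Their calls against bone-marrow macrophages are therefore not given as tests. The Jam3 call between repopulating microglia and bone-marrow macrophages changed in 6 of 22 alternatives. These included the fits without bone-marrow macrophage replicate 1, 2 or 3. F11r, a ligand of Itgal, was 3.12-fold lower in bone-marrow macrophages than in wild-type microglia (limma adjusted p = 3.74e-05). Vcam1, the ligand of the Itga4 receptor, was at 135 and 124 in wild-type microglia, 389, 404 and 229 in repopulating microglia and 646, 1093 and 727 in bone-marrow macrophages. Its differences from wild type were 1.35 ± 0.29 in repopulating microglia and 2.62 ± 0.29 in bone-marrow macrophages (limma adjusted p = 0.0266 and 0.000216). Spp1, or osteopontin, a ligand of the Itgav receptors, was at 306 and 201 in wild-type microglia, 2654, 6079 and 994 in repopulating microglia and 3705 to 4826 in bone-marrow macrophages, with differences from wild type of 3.34 ± 0.60 and 4.07 ± 0.60 (limma adjusted p = 0.0149 and 0.000948). Emilin1, a matrix glycoprotein bound by Itga4 with Itgb1, was at 33.1 and 31.5, at 113, 180 and 123, and at 929, 827 and 1125 in the same order of groups, and its differences from wild type of 2.04 ± 0.23 and 4.84 ± 0.23 (limma adjusted p = 0.00225 and 5.36e-06) held in all 22 alternatives. Tgfbi was 8.59-fold higher in bone-marrow macrophages than in wild-type microglia (limma adjusted p = 0.000833).

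Ligands called numbered 5 higher and 6 lower in bone-marrow macrophages against wild type (57.9% of those tested, against 43.5% of all genes), 3 higher and 5 lower in repopulating against wild-type microglia (42.1% against 8.61%), and 4 higher and 4 lower in repopulating microglia against bone-marrow macrophages (42.1% against 30.9%). Median log2 differences of the list were 0.06, 0.22 and 0.03 in the same order, against -0.01, -0.02 and 0.00 for all genes. The 6 lower and the 4 higher in the comparisons with bone-marrow macrophages include Jam2 and Jam3, admitted by the side where they were high. The repopulating calls of Jam2, Jam3, Vcam1 and Spp1 against wild type were lost with either wild-type library left out, replicate 1 (adjusted p = 0.205, 0.163, 0.171 and 0.108) or replicate 2 (0.127, 0.166, 0.161 and 0.119). Those of Jam2, Jam3 and Vcam1 also ended without repopulating replicate 1, of Vcam1 without repopulating replicate 2 or bone-marrow macrophage replicate 3, and of Jam3 without bone-marrow macrophage replicate 2 or 3. The 5 lower ligands became 0 without either wild-type library or repopulating replicate 1, 1 or 2 without any 1 bone-marrow macrophage library, 2 without repopulating replicate 2 and 8 without replicate 3, where the 3 higher became 6. The 3 higher became 1 without either wild-type library, and 2 without bone-marrow macrophage replicate 3 or repopulating replicate 1 or 2.

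**Figure D4:**
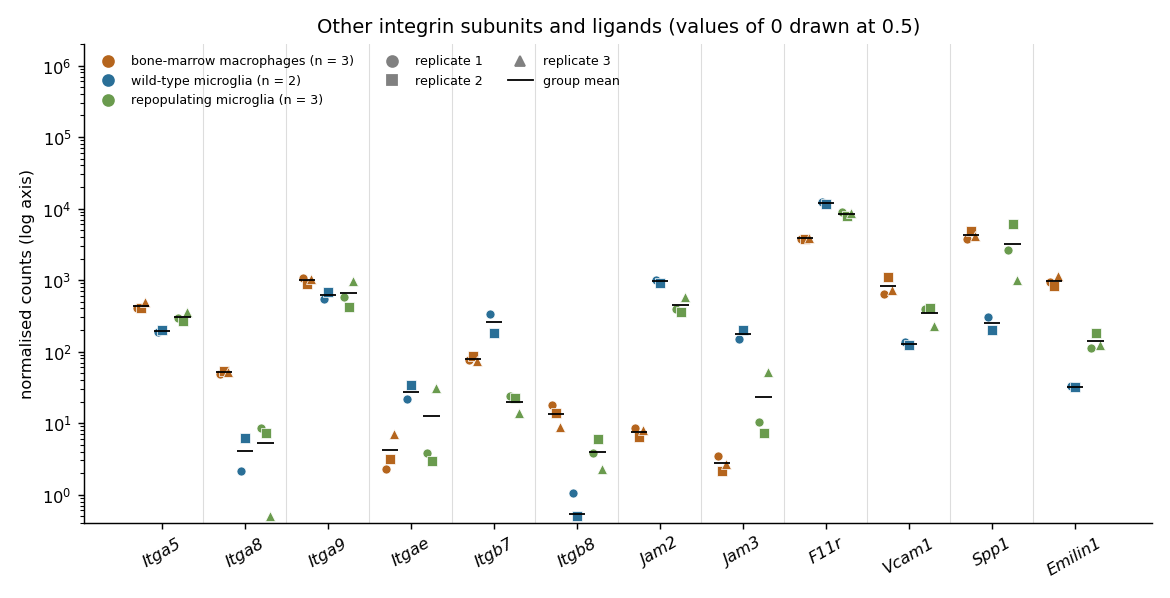
Normalised counts (log axis, values of 0 drawn at 0.5) of the 6 other integrin genes that were tested and of 6 ligand genes in each of 8 libraries. Colours stand for populations, shapes for replicate numbers and bars for group means. Jam2 lies at 6.36 to 8.52 in bone-marrow macrophages and at 362 to 994 in the microglial libraries, and Emilin1 lies lowest in wild-type microglia, at 31.5 and 33.1.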

How the data were processed

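RNA sequencing of 8 mouse libraries was analysed from gene values that the authors deposited. Per the submitters' processing notes reads were handled with TopHat2 2.0.10, Bowtie2 2.1.0.0, DESeq 1.14.0 and HTSeq on build mm10. The sources used here do not give their roles, the annotation or the strand setting. Libraries were made with a kit that does not mark strand, from RNA of integrity number above 8, per the labels' protocols. The deposited values are a signal: gene counts divided by 1 size factor per library, since 100% of the values came out as whole reads (within 0.01 reads) once divided by what 1 read is worth in the library. Totals ran from 5918944 to 12476427 reads, and their number limits precision for low genes.

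Samples were grouped by title and columns were matched by name and replicate number, the mono columns by exclusion. No column was left unused. A gene was tested where 2 or more libraries reached 10 normalised counts, which kept 11415 genes and 99.9% of the reads. Tests were run on log2(normalised count + 1) in one limma 3.58.1 model over 8 libraries with a variance trend (R 4.3.3), adjusted by Benjamini-Hochberg, two-sided. The 22 alternatives were other pseudocounts, filters, scalings, variance models and library weights, a replicate block, only the 2 groups compared, edgeR 4.0.16 and DESeq2 1.42.0 on recovered reads, and leaving out each library. With whole reads recovered, edgeR called 969 genes between the microglial groups, and 5040 and 3568 for bone-marrow macrophages with wild-type and with repopulating microglia. Scripts were tested on simulated data. Members and gene lists were chosen with earlier results of these data known. Named genes were all members, up to 4 list genes of smallest adjusted p per comparison, and the 2 genes most like each member. Others named (Itga9, Itgae, markers, Runx3's values) were chosen after their values were seen. The list symbol Nrros was matched to its older name Lrrc33 and Chil3 to Chi3l3. Coordinates and lengths are from GENCODE vM21 (GRCm38, also called mm10), 1-based, and span whole genes. Python 3.11.15 with matplotlib 3.10.9 drew the figures.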

Additional observations from a re-analysis of the deposited data

How the results depend on the processing

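The 3 members called between repopulating and wild-type microglia became 0 with only the 2 groups compared in the fit, 6 with library weights, and 0 to 6 when 1 library was left out; the cause was not tested. The 7 called between bone-marrow macrophages and wild-type microglia, and the 6 between repopulating microglia and bone-marrow macrophages, stayed between 6 and 8. Signs turned for members that had not passed. For Itga4 between repopulating and wild-type microglia the range with 1 library left out was -0.15 (without repopulating replicate 2) to 1.15 (without replicate 3), and for Itgal -0.18 to 1.01, with -0.07 without replicate 1. Quantile normalisation turned Itgb5 between bone-marrow macrophages and wild-type microglia to 0.060. Between repopulating microglia and bone-marrow macrophages Itga6 ran from -0.17 to 0.0039 and Itgb1 from -0.11 to 0.034 with 1 library left out, both highest without repopulating replicate 3, and Itgb1 was at 0.061 with library weights. In that comparison Itgav turned to -0.24 with equal totals, -0.041 with TMM scaling, -0.10 with quantile normalisation and -0.027 in edgeR. Its range with 1 library left out was -0.10 to 0.18, with -0.056 without bone-marrow macrophage replicate 3 and -0.048 without repopulating replicate 1. The cause of these turns was not tested.

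Genes called between repopulating and wild-type microglia numbered 983, but 82 with only those 2 groups, 2807 with library weights, 1625 in DESeq2 and 67 to 2969 with 1 library left out. Between bone-marrow macrophages and wild-type microglia 4960 became 2821 to 6992 with 1 library left out, and between bone-marrow macrophages and repopulating microglia 3526 became 6409 with library weights and 2212 to 5335 with 1 library left out. Scaling to equal totals moved the median log2 difference of all genes to -0.13 (repopulating against wild type), 0.14 (bone-marrow macrophages against wild type) and -0.25 (repopulating against bone-marrow macrophages). The calls there were 440 higher and 729 lower against 555 and 428, 3007 and 2068 against 2428 and 2532, and 1169 and 2934 against 1826 and 1700.

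Replicate numbers are shared between groups, but nothing says that they mark a shared animal or day, and same-numbered libraries deviated together with r from -0.240 to 0.244 over genes. With a replicate block 2 members were called between repopulating and wild-type microglia, where Itgb2 was at 0.57 (adjusted p = 0.0617), and 7 and 6 in the comparisons of bone-marrow macrophages with wild-type and with repopulating microglia. With 2 wild-type libraries, leaving out 1 assumes that the other varies like the rest. Depth limits Itgb3 in bone-marrow macrophages, at 32 to 54 reads, and Itga4 and Itgal in repopulating replicate 3, at 64 and 117 reads.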
